A study of Mus musculus with 27 samples.

Results

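Late recovery from diet-induced obesity was compared with early recovery in C57BL/6N mice. The tissue was epididymal white adipose tissue, a visceral fat depot next to the testis and epididymis. Both groups had first eaten a high-fat diet (60% of energy as fat) for 8 weeks and had then returned to normal diet. The early group, called loss, had 4 weeks of normal diet after the switch and was 17 weeks old. The late group, called maintenance, had 8 weeks of normal diet after the switch and was 21 weeks old. Each group has 3 libraries, so the comparison uses 6 of the 27 libraries of the series, taken by their labels. The reference levels come from control12 and control16, 3 libraries each, from mice kept on normal diet throughout and aged 17 and 21 weeks. The labels name no transgene or deletion in any of these groups. Time on normal diet and age move together between loss and maintenance and cannot be told apart there; the change from control12 to control16 gives the same 4 weeks of age in mice that never had the high-fat diet. RNA came from the whole pad, which holds adipocytes, macrophages, vessels, fibroblasts and the mesothelial cells of its surface.

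Obesity brings macrophages into visceral fat. Many of them gather around dying adipocytes, take up lipid and express a lipid-associated programme marked by Trem2 and Gpnmb, with lysosomal enzymes such as Lipa and cathepsins. Resident macrophages of lean fat are instead known by Timd4, Lyve1 and Cd163. When the diet is made leaner, adipocytes release stored fat, and clearing that lipid and dead cells falls to macrophages. The adipocyte's own programme includes the secreted proteins adiponectin (Adipoq), adipsin (Cfd) and resistin (Retn), fat synthesis from glucose, and the breakdown of branched-chain amino acids in mitochondria.

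Levels are given as CPM, the usual read count normalised to library size, with library sizes scaled by TMM, a correction for a few very abundant genes. A change is the log2 fold change ± SE of maintenance over loss, and a gene is called when its adjusted p lies under 0.05 (edgeR's quasi-likelihood test, Benjamini-Hochberg adjustment over the 17821 genes tested). Values for replicates 1, 2 and 3 of a group always stand in that order. Apoe, Cd36, Mmp9, Dcn, Akt1, Tnf, Timd4, Mrc1, Mcm7, Tyms, Acly, Elovl6, Scd2, Fdps and Dhcr7 were picked for description after their values were seen, as members of lists. Libraries held 26479773 to 29808500 counts in maintenance and 27128872 to 29464404 in loss. Whether replicates of a group came from different mice is not in the labels, so the p-values reflect the spread among the libraries at hand, part of which may be technical.

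The libraries of both groups were uneven. Of 17 liver genes, 14 lay at or under 10 CPM in the controls, and these 14 summed to 3718 CPM in maintenance library 3, against 20.9 and 5.11 CPM in maintenance libraries 1 and 2 and 4.77 to 20.4 CPM in loss. Alb, the albumin gene, is not among the 14. It was at 14.6, 13.3 and 5233 CPM in maintenance and 0.908, 4.60 and 14.0 CPM in loss. Over all 6 libraries 16 of the 17 liver genes were called higher in maintenance, and without maintenance library 3 and loss library 1 the count was 3 (median -1.16). Transcripts of epididymis and sperm summed to 17.9, 40.6 and 56.0 CPM in maintenance and to under 1 CPM in each loss library. The controls varied as well, at 12.6, 0.267 and 61.6 CPM in control12 and 0.150, 1.95 and 18.2 CPM in control16. The sequence counted at Lars2, a locus that carries a stretch like ribosomal RNA, was at 2849.7, 116 and 2789 CPM in loss and at 135, 189.8 and 4104 CPM in maintenance, so libraries above and below 1000 CPM were mixed in both groups. Loss library 1 was the highest of its group for macrophage markers and the lowest for adipocyte markers. The counts of most main lists are therefore given over all 6 libraries and again without maintenance library 3 and loss library 1. That setting is called the 4-library fit below. With the Lars2 level (above or below 1000 CPM) as a term in the fit, 4616 genes were called in place of 4368, and 4153 were shared. How far the differences in liver, epididymis and sperm signal bear on the results was not tested.

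Over all 6 libraries 4368 genes were called, 24.5% of those tested. Of these, 2069 (11.6% of genes tested) were higher in maintenance and 2299 (12.9%) were lower, with 1354 and 1254 of them at least 2-fold different. The groups did not overlap, in any order of replicates, for 13.5% of genes on the higher side and 15.2% on the lower side. In the 4-library fit 1779 genes were called, 751 higher (4.21%) and 1028 lower (5.77%), and 1507 of them had been called in the same direction over all 6. These calls rest on a spread estimated over all 9 groups of the series: a fit of only the 6 libraries called 0 genes, although 3920 had an unadjusted p below 0.05 (smallest adjusted p 0.0989), where DESeq2 on all groups called 5012. Without loss library 1 the count fell to 1647. On the authors' FPKM 22.6% of called genes were higher in maintenance, against 47.4% here, and the median of all genes was -0.08 in place of 0.06 in that limma fit of 15414 genes, which differs in scale, test and genes at once. With RLE in place of TMM scaling alone, 52.0% were higher. Exact permutation of 3 against 3 libraries cannot give p under 0.1.

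**Figure D1:**
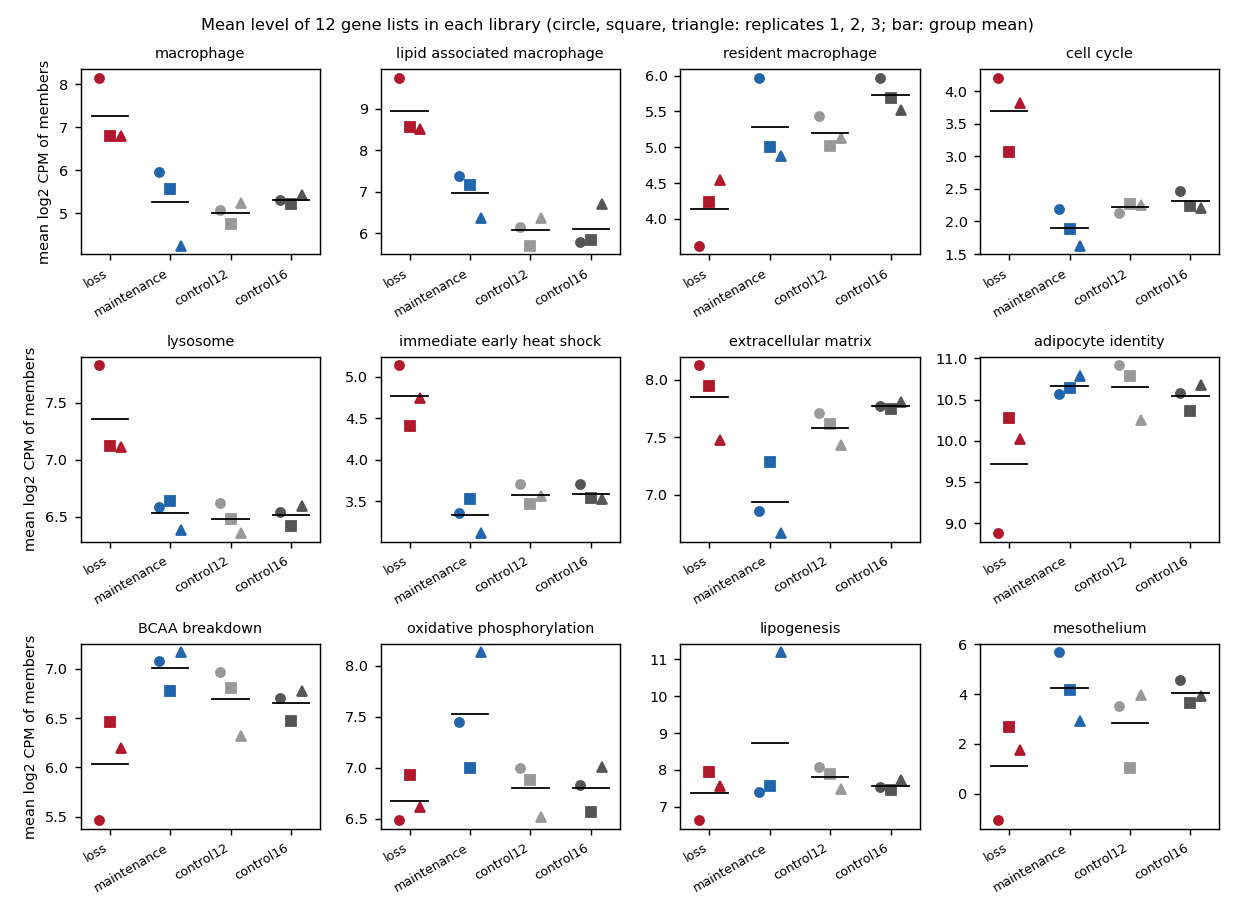
Mean log2 CPM of the members of 12 gene lists in each loss, maintenance, control12 and control16 library; symbols mark replicates 1, 2 and 3 and bars the mean of each group. Macrophage, lysosome, cell cycle and immediate early lists are highest in loss, loss library 1 stands at an extreme of most panels, and maintenance library 3 stands far above the rest for lipogenesis.

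Macrophage transcripts were lower in late recovery. Of 24 general macrophage markers 20 fell from early to late recovery and none rose, with a median change of -2.27 beside 0.06 over all genes. Their mean level was 8.15, 6.80 and 6.80 log2 CPM in loss, 5.97, 5.56 and 4.24 in maintenance and 4.74 to 5.41 over the 6 control libraries. In the 4-library fit 14 of the 24 fell, with a median of -1.13. In whole-tissue RNA, fewer cells of a type and less RNA per cell cannot be told apart, here and for every list below.

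Spi1, which encodes PU.1, the transcription factor that sets up the macrophage lineage, was at 242, 84.1 and 106 CPM in loss and 25.7, 24.0 and 12.5 CPM in maintenance (-2.80 ± 0.34, adjusted p = 8.7e-05). Every loss library lay above every maintenance library, and the controls spanned 18 to 22.5 CPM. Emr1, the gene of the surface marker F4/80, went from 628, 304 and 351 CPM in loss to 112, 85.6 and 40.3 CPM in maintenance (-2.43 ± 0.40, adjusted p = 0.000344), with controls at 56.9 to 81.3 CPM. Itgax, encoding the integrin CD11c of recruited macrophages, was at 485, 213 and 167 CPM in loss and at 33.9, 44.0 and 9.58 CPM in maintenance (-3.30 ± 0.63, adjusted p = 0.000947). The 3 genes kept their calls in the 4-library fit, with changes of -1.90, -1.69 and -2.25. Cybb, a subunit of the phagocyte oxidase, fell by 2.59 and the lysosomal membrane protein gene Laptm5 by 2.41, and both were also lower in the 4-library fit (-1.64 and -1.38). Among 9 genes of Fc receptors and their signalling, which macrophages use to bind antibody, 7 fell (median -1.66). The kinase gene Lyn and the phospholipase gene Plcg2 fell by 1.41 and 2.21 and were also called in the 4-library fit, where 3 of the list fell.

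Most genes of the lipid-associated programme fell too. Of its 22 genes 17 fell and 1 rose, with a median of -2.34; without loss library 1 alone 11 fell, and in the 4-library fit 10 fell with a median of -1.27. Gpnmb, a glycoprotein of lipid-laden macrophages, was counted at 7246, 1316 and 1953 CPM in loss and at 304, 219 and 43.2 CPM in maintenance (-4.21 ± 0.79, adjusted p = 0.000833; 4-library fit -2.60, adjusted p = 0.0236). Loss library 1 was the highest by far and maintenance library 3 the lowest, and maintenance libraries 1 and 2 still lay above the whole control range of 15.9 to 98.6 CPM. Lipa, lysosomal acid lipase, which frees fatty acids and cholesterol from lipid taken up by the cell, fell from 2041, 519 and 782 CPM to 173, 169 and 114 CPM (-2.87 ± 0.37, adjusted p = 9.36e-05; 4-library fit -1.89, adjusted p = 0.00167). Its control range was 124 to 157 CPM, with maintenance libraries 1 and 2 above it and maintenance library 3 below it. The cysteine protease gene Ctsk was at 655, 195 and 226 CPM in loss and 66.9, 43.1 and 26.1 CPM in maintenance (-2.98 ± 0.43, adjusted p = 0.000143), and galectin-3 (Lgals3) fell by 2.72.

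Trem2, the lipid receptor that defines these cells, was at 492, 251 and 219 CPM in loss and 90.5, 54.6 and 9.67 CPM in maintenance (-2.64 ± 0.67, adjusted p = 0.00709). Its groups did not overlap, but the call was lost without loss library 1 (-2.19, adjusted p = 0.0506) and in the 4-library fit (-1.66, adjusted p = 0.105). Maintenance libraries 1 and 2 lay above the control range of 5.42 to 19.5 CPM, and library 3 lay within it. The 1 gene of the list that rose was Apoe, the apolipoprotein E gene, which adipocytes and liver also express: it was at 2702, 3925 and 3399 CPM in loss and 9987, 5622 and 5046 CPM in maintenance (1.04 ± 0.34, adjusted p = 0.0303), and it was not called without loss library 1 or 3 or maintenance library 1 (adjusted p 0.0802 to 0.203) or in the 4-library fit (1.13, adjusted p = 0.0863).

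**Figure D2:**
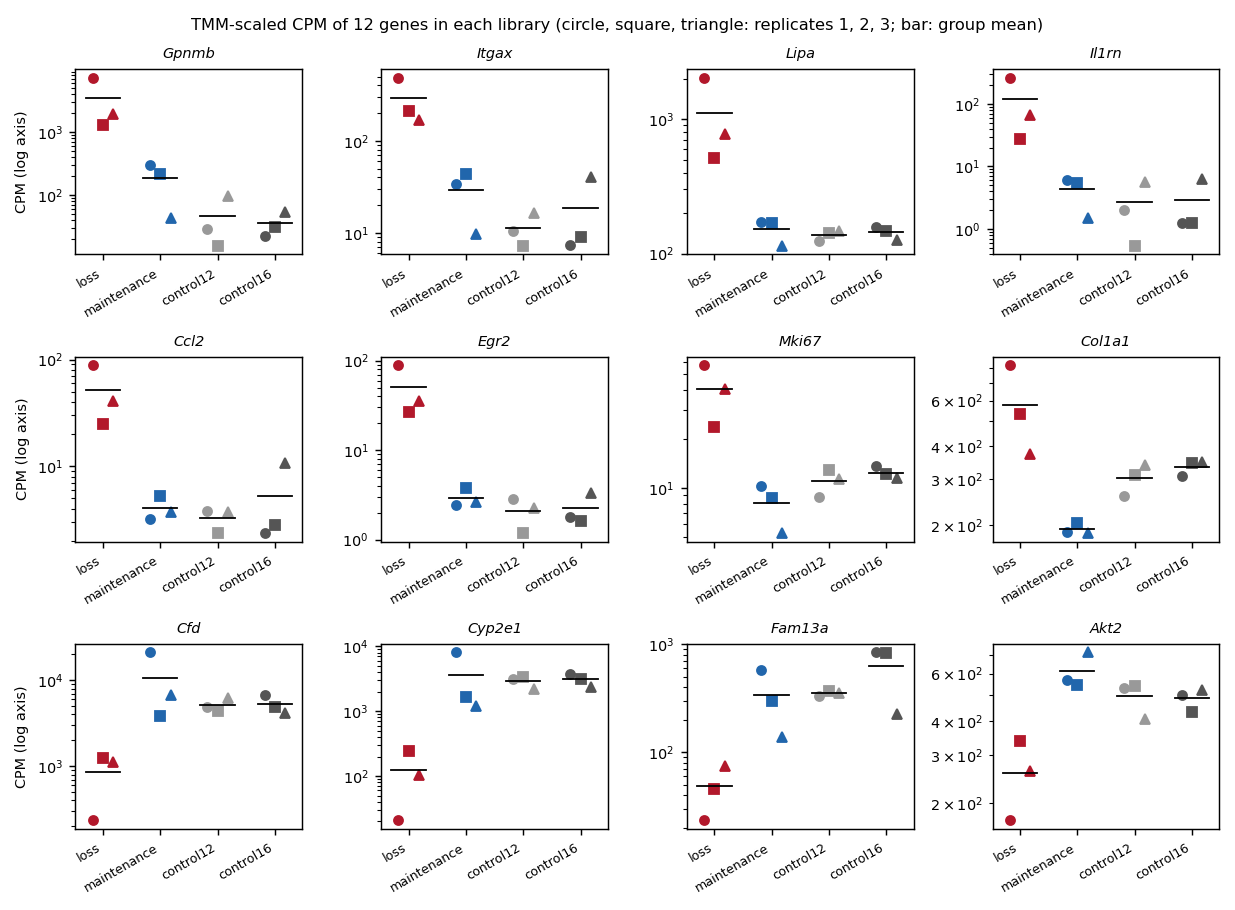
TMM-scaled CPM of 12 genes on a logarithmic axis in each loss, maintenance, control12 and control16 library; symbols mark replicates 1, 2 and 3 and bars the mean of each group. For all 12 genes the 3 loss libraries lie on one side of the 3 maintenance libraries, and Gpnmb, Itgax and Il1rn are highest in loss library 1 and lowest among the 6 in maintenance library 3.

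Resident macrophage markers went the other way. Of 15 markers 9 rose and none fell (8 rose and 2 fell on FPKM; median 1.43; 3 rose in the 4-library fit, median 1.35). Without loss library 1 3 rose, and without maintenance library 1 3 rose and 2 fell. Without loss library 2 9 rose and 2 fell. The 3 genes with the smallest adjusted p were lectin receptors of the Cd209 cluster, a family of near copies between which reads may be shared: Cd209a was at 4.09, 3.49 and 4.50 CPM in loss and 13.4, 9.15 and 12.1 CPM in maintenance (1.52 ± 0.33, adjusted p = 0.0027). Cd209d rose by 2.56 and Cd209b by 2.50, and all 3 were called in the 4-library fit, although Cd209b lost its call without maintenance library 1 (1.48, adjusted p = 0.0518). Cd163, the haemoglobin scavenger receptor, was at 15.2, 33.4 and 32.3 CPM in loss and 113, 65.0 and 39.7 CPM in maintenance (1.43 ± 0.47, adjusted p = 0.0305) against 112 to 262 CPM in controls. All 6 recovering libraries except maintenance library 1 were under the lowest control, and the call was lost without loss library 1 (1.15, adjusted p = 0.168), loss library 3 (1.59, adjusted p = 0.0515) or maintenance library 1 (0.96, adjusted p = 0.179) and in the 4-library fit (1.48, adjusted p = 0.0773). Timd4, a receptor for dying cells, was at 0.349, 1.04 and 1.42 CPM in loss and 5.05, 2.02 and 4.37 CPM in maintenance (2.02 ± 0.56, adjusted p = 0.0119; 4-library fit 1.56, adjusted p = 0.12). The mannose receptor gene Mrc1 did not pass (change -0.85 ± 0.33, adjusted p = 0.0619).

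Many cytokine and chemokine genes fell with the macrophage markers. Among 27 cytokine and chemokine genes 13 fell and 1 rose (median -1.46); in the 4-library fit 8 fell and 3 rose (median -1.08). Ccl2, which encodes the monocyte attractant MCP-1, was at 88.8, 25.1 and 40.7 CPM in loss and 3.24, 5.28 and 3.75 CPM in maintenance (-3.65 ± 0.53, adjusted p = 0.000143; 4-library fit -2.91, adjusted p = 0.00468). The maintenance libraries lay inside the control range of 2.37 to 10.7 CPM. Il1rn, encoding the interleukin-1 receptor antagonist, was at 264, 27.3 and 65.8 CPM in loss and 5.96, 5.52 and 1.5 CPM in maintenance (-4.77 ± 0.84, adjusted p = 0.000507; 4-library fit -2.98, adjusted p = 0.0183). The growth factor genes Csf1 and Tgfb1 fell by less, with Csf1, the macrophage survival factor, at 108, 81.2 and 109.7 CPM in loss and 51.1, 53.6 and 47.1 CPM in maintenance (-0.98 ± 0.15, adjusted p = 0.00021) and Tgfb1 changed by -1.82. Tnf was at 10.6, 2.82 and 3.87 CPM in loss and 0.339, 0.639 and 0.795 CPM in maintenance (-3.28 ± 0.61, adjusted p = 0.000813). The 1 gene that rose was Cxcl13, the chemokine that draws B cells, with 0.0699, 0.403 and 0.265 CPM in loss and 27.3, 4.41 and 6.85 CPM in maintenance (5.68 ± 1.24, adjusted p = 0.00263).

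Other immune lists moved little or not uniformly. In the 4-library fit 2 MHC class II genes and 1 T and NK cell gene fell. In the same fit 2 B and plasma cell genes and 1 neutrophil gene rose, and no mast cell or interferon-induced gene was called. Of 11 genes of antigen presentation by MHC class II 4 fell, led by the protease gene Ctss (-2.45 ± 0.49, adjusted p = 0.00124) and the peptide loader H2-DMb1 (-1.29 ± 0.30, adjusted p = 0.00454), while 2 fell in each of the fits without loss library 2, maintenance library 1 or maintenance library 3. Of 21 T and NK cell genes Trac, a T cell receptor constant gene, rose (2.12 ± 0.70, adjusted p = 0.0321; without loss library 1 1.99, adjusted p = 0.137; without loss library 3 1.92, adjusted p = 0.105; without maintenance library 3 0.32, adjusted p = 0.706) and 1 fell: the interleukin-7 receptor gene Il7r fell from 135, 61.4 and 71.0 CPM to 20.0, 19.9 and 3.09 CPM (-2.63 ± 0.50, adjusted p = 0.000904). Among 12 B and plasma cell genes 4 rose (on FPKM at most 1 rose and 1 fell), with the immunoglobulin joining chain gene Igj at 1.68, 1.78 and 3.47 CPM in loss and 36.2, 33.3 and 3.0 CPM in maintenance (3.39 ± 0.89, adjusted p = 0.00891). Maintenance library 3 lay within the loss range for Igj, and none of the 4 was called without loss library 1, while 2 rose and 1 fell without maintenance library 2. Of 10 mast cell genes Kit alone was called (-1.40 ± 0.39, adjusted p = 0.0119), and Kit lost its call without loss library 1 (-1.26, adjusted p = 0.0673) or loss library 3 (-1.09, adjusted p = 0.0687). The mast cell protease gene Mcpt4 was at 71.2, 17.4 and 5.76 CPM in loss and 31.9, 11.5 and 14.3 CPM in maintenance (-0.71 ± 0.71, adjusted p = 0.492), with overlapping groups. None of 7 neutrophil genes passed over all 6 libraries, and of 21 interferon-induced genes Oas1a passed (-1.06 ± 0.36, adjusted p = 0.0348), but not without loss library 1 or 3 or maintenance library 2 or 3 (adjusted p 0.0515 to 0.198).

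Cell division transcripts fell together. Of 30 cell cycle genes 28 fell, with a median of -1.92, and 23 fell in the 4-library fit (median -1.49). Their mean level was 4.20, 3.06 and 3.82 log2 CPM in loss, 2.19, 1.89 and 1.63 in maintenance and 2.14 to 2.47 in the controls, and no loss library overlapped a maintenance library. Mki67, the gene of the proliferation antigen Ki-67, was at 57.2, 23.7 and 40.8 CPM in loss and 10.3, 8.68 and 5.26 CPM in maintenance (-2.32 ± 0.39, adjusted p = 0.000367; 4-library fit -1.72, adjusted p = 0.0171), against 8.75 to 13.6 CPM in controls. Birc5, which encodes the mitotic protein survivin, was at 9.43, 7.53 and 9.10 CPM in loss and 3.70, 2.19 and 1.02 CPM in maintenance (-1.91 ± 0.35, adjusted p = 0.000699). Cdca8, a partner of survivin in the chromosomal passenger complex, fell by 2.39, and the kinetochore motor gene Cenpe was at 9.78, 5.14 and 8.73 CPM in loss and 1.36, 1.51 and 1.46 CPM in maintenance (-2.45 ± 0.38, adjusted p = 0.000191). The replication helicase gene Mcm2 was at 31.7, 13.4 and 19.5 CPM in loss and 5.58, 5.42 and 6.45 CPM in maintenance (-1.89 ± 0.29, adjusted p = 0.000178; 4-library fit -1.54, adjusted p = 0.00472). The 2 genes that did not pass were Mcm7 (0.20 ± 0.22, adjusted p = 0.52) and thymidylate synthase, Tyms (-0.16 ± 0.18, adjusted p = 0.558).

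The promoters of the 30 cell cycle genes were searched for 2 elements known from such genes. The window ran from 250 bases before to 50 bases after the start (RefSeq, GRCm38.p6), and both strands were read. The CHR, searched as TTTGAA or TTCGAA, is bound by the DREAM complex, which holds such genes off in resting cells. CCAAT is bound by the factor NF-Y. The promoter table held 28 windows for 26 of the 30 genes: 57.1% held a CHR, 85.7% a CCAAT and 57.1% both. Over the windows of all tested genes the shares were 14.3%, 37.1% and 5.84%. Over those of all genes called lower in maintenance they were 15.2%, 36.1% and 6.59%, close to the shares of all tested genes. The high shares thus belong to this list and not to the genes that fell as a whole. CCAAT was also in 80% of the 20 windows of the sterol synthesis list. The 250 bases before the start are shown for Mki67 and Mcm2, which hold both elements, written 5′ to 3′ on the strand of the gene with the matches in capitals (a match on the other strand reads ATTGG or TTCAAA). No CHR was found in the windows of Birc5 and Cenpe, which says only that these letters are not there. Of the other motifs searched, the E2F elements TTCCCGC or TTGGCGC were in 28.6% of the windows of this list and 10.9% of those of all tested genes. Among genes called lower in maintenance the share was 10.9% as well.
Mki67 (chr7:135716380-135716629, minus strand): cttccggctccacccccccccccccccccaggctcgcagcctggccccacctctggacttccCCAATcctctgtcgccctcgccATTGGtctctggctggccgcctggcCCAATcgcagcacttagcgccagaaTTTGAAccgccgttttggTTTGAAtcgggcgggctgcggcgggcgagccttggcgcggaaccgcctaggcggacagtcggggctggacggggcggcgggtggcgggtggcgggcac
Mcm2 (chr6:88898781-88899030, minus strand): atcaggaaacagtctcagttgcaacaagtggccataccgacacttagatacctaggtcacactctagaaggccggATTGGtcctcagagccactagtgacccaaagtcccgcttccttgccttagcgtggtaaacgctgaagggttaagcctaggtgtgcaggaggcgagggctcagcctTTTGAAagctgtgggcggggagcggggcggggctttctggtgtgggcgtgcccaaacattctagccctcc

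Lysosomal enzymes were lower in late recovery. Of 27 lysosome genes 19 fell and none rose (median -0.78); 10 fell without loss library 1 and 9 in the 4-library fit (median -0.39). Gusb, encoding beta-glucuronidase, was at 654, 264 and 338 CPM in loss and 96.1, 97.5 and 89.1 CPM in maintenance (-2.15 ± 0.25, adjusted p = 8.1e-05; 4-library fit -1.60, adjusted p = 0.000962). Its maintenance libraries lay within 10 CPM of each other, and the controls spanned 71.0 to 106 CPM. The gene of alpha-galactosidase A, Gla, was at 121, 36.7 and 48.9 CPM in loss and 17.7, 13.5 and 8.92 CPM in maintenance (-2.36 ± 0.32, adjusted p = 0.000106), and Psap, the precursor of the saposins that help to degrade sphingolipids, at 16906, 5359 and 6463 CPM in loss and 2469, 2789 and 2018 CPM in maintenance (-1.98 ± 0.30, adjusted p = 0.000188). The E-box CACGTG, a palindrome at the core of the element bound by TFEB, the factor that induces lysosomal genes, was found in 43.5% of the 23 windows of this list and in 9.13% of the windows of all tested genes. The stretch before the start of Gla holds it in 2 places, in capitals. The windows of Gusb and Psap held no match to these letters. The PU.1 element AGGAAGT was in 21.1% of 19 windows of the macrophage list against 9.16% over all tested genes, and the SREBP element CACCCCA in 15% of 20 windows of the sterol list against 8.31%. Among all genes called lower in maintenance the E-box was in 9.78% of windows, the PU.1 element in 12.9% and the SREBP element in 8.79%. These matches are descriptions of the letters, and no binding was measured.
Gla (chrX:134601006-134601255, minus strand): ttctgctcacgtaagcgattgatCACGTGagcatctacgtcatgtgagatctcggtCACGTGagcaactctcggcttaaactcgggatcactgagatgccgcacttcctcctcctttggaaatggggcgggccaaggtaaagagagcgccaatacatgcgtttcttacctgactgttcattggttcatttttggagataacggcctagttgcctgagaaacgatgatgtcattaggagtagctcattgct

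Immediate early and heat shock transcripts were lower in late recovery. Of 20 genes 14 fell (median -1.10), and 9 fell in the 4-library fit (median -0.81). Egr2, a zinc finger factor induced within minutes of stimulation, was among the 3 genes with the smallest adjusted p of all tested: it was at 89.4, 26.9 and 35.0 CPM in loss, 2.45, 3.73 and 2.65 CPM in maintenance and 1.18 to 3.34 CPM in controls (-4.09 ± 0.45, adjusted p = 6.97e-05; 4-library fit -3.29, adjusted p = 0.000962). Atf3, a stress-induced repressor, was at 354, 141 and 142 CPM in loss and 28.3, 28.4 and 5.61 CPM in maintenance (-3.35 ± 0.51, adjusted p = 0.000179). Maintenance libraries 1 and 2 stayed above the control range of 7.14 to 11.7 CPM for Atf3. Junb, a subunit of the AP-1 factor, was at 104, 33.1 and 46.1 CPM in loss and 16.0, 16.1 and 9.85 CPM in maintenance (-2.13 ± 0.31, adjusted p = 0.00014).

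The stress lists gave calls in both directions, where 12.9% of all genes tested fell and 11.6% rose. Of 14 oxidative stress genes 5 fell and 3 rose. Hmox1, haem oxygenase-1, was at 1017, 115 and 159 CPM in loss and 69.1, 57.8 and 34.6 CPM in maintenance (-3.0 ± 0.56, adjusted p = 0.000818; 4-library fit -1.07, adjusted p = 0.047), and Gsta3, a glutathione transferase gene, rose from 49.3, 41.3 and 30.7 CPM to 186, 109 and 258 CPM (2.19 ± 0.45, adjusted p = 0.00157). Without loss library 1 the counts were 2 and 1, and in the 4-library fit 3 fell and 2 rose. Among 14 genes of endoplasmic reticulum stress 2 fell (5 without loss library 2) and 2 rose, near the shares over all genes (median -0.11). Asns, the asparagine synthetase gene, was at 23.1, 36.8 and 39.4 CPM in loss and 135, 77.5 and 74.7 CPM in maintenance (1.53 ± 0.26, adjusted p = 0.00037; 4-library fit 1.53, adjusted p = 0.00481), whereas the chaperone cofactor gene Sdf2l1 fell by 1.73.

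Matrix genes were lower in late recovery over all 6 libraries, and few of them were called in the 4-library fit. Their mean level was 8.13, 7.95 and 7.48 log2 CPM in loss and 6.86, 7.28 and 6.66 in maintenance, below the control range of 7.43 to 7.81 in each maintenance library. Of 37 genes of the extracellular matrix 19 fell and none rose, with a median of -0.83. The count on the lower side was 5 without loss library 1 and 11 without maintenance library 1. In the 4-library fit 2 fell and 1 rose (median -0.65). Of all genes tested 5.77% fell and 4.21% rose in that fit, so these counts lay near the shares over all genes. Col1a1, a chain of type I collagen, was at 821, 533 and 375 CPM in loss and 188, 203 and 186 CPM in maintenance (-1.58 ± 0.32, adjusted p = 0.00162; 4-library fit -1.18, adjusted p = 0.046). All 3 maintenance libraries lay below the lowest control (controls 257 to 348 CPM). Col6a3, a chain of the type VI collagen that surrounds adipocytes, was at 444, 363 and 243 CPM in loss and 80.7, 111 and 161 CPM in maintenance (-1.57 ± 0.36, adjusted p = 0.0035), and the proteoglycan gene Bgn fell by 1.71 but was not called in the 4-library fit (-0.98, adjusted p = 0.0594). Dcn, the decorin gene, was the 1 member higher in the 4-library fit (1.31, adjusted p = 0.0424), at 4096, 1845 and 1021 CPM in maintenance.

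Of 16 metalloproteinase and related genes, whose products cut matrix, 8 fell and 1 rose; 4 fell without loss library 1, and 5 fell and 1 rose in the 4-library fit. Mmp12, the macrophage elastase gene, was at 8206, 646 and 1585 CPM in loss and 139, 191 and 38.3 CPM in maintenance (-4.83 ± 0.92, adjusted p = 0.000935; 4-library fit -2.73, adjusted p = 0.0371). Maintenance libraries 1 and 2 lay above every control (7.64 to 46.6 CPM), and maintenance library 3 lay among them. Mmp13, a collagenase gene, was at 22.6, 2.02 and 1.92 CPM in loss and 0.226, 0.269 and 0.132 CPM in maintenance (-5.35 ± 0.90, adjusted p = 0.000362), and Adam8 at 1003, 209.8 and 286 CPM in loss and 48.2, 39.4 and 7.07 CPM in maintenance (-3.98 ± 0.76, adjusted p = 0.000996). The gelatinase gene Mmp9 went the other way, from 4.23, 4.90 and 4.17 CPM to 25.0, 17.9 and 11.7 CPM (2.04 ± 0.48, adjusted p = 0.00423; 4-library fit 2.28, adjusted p = 0.0185), against 14.4 to 41.7 CPM in controls. Among 16 fibroblast and preadipocyte genes 3 fell and 1 rose (median 0.25), where 12.9% of all genes tested fell and 11.6% rose. None fell without loss library 1, and 1 fell without maintenance library 1. In the 4-library fit none fell and 2 rose (median 0.21). Dpp4, a marker of interstitial progenitors, rose by 1.70 but was not called without loss library 1 (1.39, adjusted p = 0.0945) or maintenance library 1 (1.24, adjusted p = 0.0836).

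Adipocyte genes were higher in late recovery in part of their list. Of 20 identity genes 7 rose and 1 fell (4 rose on FPKM; median 0.85), with 2 higher without loss library 1, 12 without loss library 2, 4 without maintenance library 1 and 3 in the 4-library fit (median 0.58). Cfd, adipsin, was at 234, 1239.7 and 1126 CPM in loss, 21084, 3862 and 6789.5 CPM in maintenance and 4104 to 6746 CPM in controls (3.61 ± 0.71, adjusted p = 0.00119; 4-library fit 3.45, adjusted p = 0.0106). Loss libraries were all below and maintenance library 1 was far above the controls. Retn, the resistin gene, was at 71.0, 396 and 275 CPM in loss and 1885, 774 and 2617 CPM in maintenance (2.83 ± 0.55, adjusted p = 0.00108). Acvr1c, the receptor ALK7, which holds back lipolysis in adipocytes, was at 41.3, 78.2 and 108 CPM in loss and 234, 164 and 123 CPM in maintenance (1.20 ± 0.31, adjusted p = 0.00852); it lost its call without loss library 1 (0.91, adjusted p = 0.0707) or maintenance library 1 (0.92, adjusted p = 0.0582) and was called in the 4-library fit. The fatty acid transporter gene Cd36, which macrophages also express, fell by 0.55 (adjusted p = 0.0496) and was not called in the 4-library fit or without loss library 1 or 3 or maintenance library 1 or 3 (adjusted p 0.0733 to 0.251).

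The classical hormones of the adipocyte did not pass. Adipoq was at 764, 3181 and 1937 CPM in loss and 5812, 4387 and 1631 CPM in maintenance (1.01 ± 0.44, adjusted p = 0.096). Lep, the leptin gene, was at 1086, 2216 and 1645 CPM in loss and 74.1, 1742 and 743 CPM in maintenance (-0.95 ± 0.64, adjusted p = 0.288), and its groups overlapped. Maintenance library 1 held the lowest Lep of the 12 libraries and the highest Cfd. Pck1, the enzyme of glycerol synthesis in fat, was at 318, 2147 and 896 CPM in loss and 5341, 4506 and 622 CPM in maintenance (1.64 ± 0.58, adjusted p = 0.0448), with overlapping groups. Its call was lost without loss library 1 or 3 or maintenance library 1 or 2 (adjusted p 0.0991 to 0.203) and held in the 4-library fit (1.73, adjusted p = 0.0145).

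Genes of fat pad size and insulin action gave a few stable calls. Fam13a, a gene tied to fat distribution and to the insulin response of adipocytes, was at 23.5, 46.2 and 75.6 CPM in loss, 574, 297 and 138 CPM in maintenance and 225 to 843 CPM in controls (2.80 ± 0.49, adjusted p = 0.000499; 4-library fit 2.88, adjusted p = 0.00252). Of 16 insulin signalling genes 5 rose and 1 fell (2 rose without loss library 1, 3 without maintenance library 3, 3 in the 4-library fit, and 3 rose and 2 fell on FPKM). Akt2, the kinase that carries the insulin signal to glucose uptake, was at 173, 339 and 263 CPM in loss, 568, 546 and 718 CPM in maintenance and 408 to 542 CPM in controls (1.24 ± 0.19, adjusted p = 0.000195; 4-library fit 0.93, adjusted p = 0.00318). Insr, the insulin receptor gene, was at 74.7, 109.9 and 134 CPM in loss and 204, 188 and 166 CPM in maintenance (0.81 ± 0.18, adjusted p = 0.00335). Akt1, the widely expressed sister of Akt2, fell by 0.79 (adjusted p = 0.0213) and was not called in the 4-library fit (-0.62, adjusted p = 0.141) or without loss library 1 or maintenance library 1 or 2 (adjusted p 0.0656 to 0.208). Among 16 genes of lipolysis and adrenergic signalling 4 rose (1 without loss library 1, 7 without loss library 2), with the phosphodiesterase gene Pde3b at 101, 248 and 277 CPM in loss and 560.04, 421 and 333 CPM in maintenance (1.07 ± 0.31, adjusted p = 0.0151; without loss library 1 0.74, adjusted p = 0.0997; without maintenance library 1 0.85, adjusted p = 0.0795).

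Transcripts of branched-chain amino acid breakdown were higher in late recovery. Of 20 genes 17 rose and none fell (median 1.05); 9 rose without loss library 1 and 8 in the 4-library fit (median 0.73). Mccc2, a subunit of the leucine pathway's carboxylase, was at 22.7, 52.6 and 42.7 CPM in loss and 158, 74.7 and 99.0 CPM in maintenance (1.49 ± 0.26, adjusted p = 0.000542; 4-library fit 1.33, adjusted p = 0.00741). The hydratase gene Echs1 was at 68.1, 169 and 126 CPM in loss and 325, 217 and 406 CPM in maintenance (1.38 ± 0.27, adjusted p = 0.00102), and Hibch, of the valine pathway, rose by 1.38. No loss library overlapped a maintenance library for these 3 genes, and loss library 1 was the lowest for each.

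Genes of respiration were higher as well over all 6 libraries, but few of them were called in the 4-library fit. Of 42 nuclear genes of oxidative phosphorylation 34 rose and none fell (median 0.95); 8 rose without loss library 1, 17 without maintenance library 3 and 1 in the 4-library fit (median 0.53). That 1 gene was Atp5c1, a subunit of ATP synthase, at 159, 199.6 and 191 CPM in loss and 411, 257 and 537 CPM in maintenance (1.13 ± 0.22, adjusted p = 0.0013; 4-library fit 0.82, adjusted p = 0.0468). Of 20 citrate cycle genes 13 rose, with 4 without loss library 1, 7 without loss library 3, 4 without maintenance library 3 and 1, Suclg2, in the 4-library fit (0.71, adjusted p = 0.0174). Of the 13 protein genes of the mitochondrial genome 8 rose (2 without loss library 1, 4 without loss library 3, 1 in the 4-library fit), with mt-Nd6 at 590.1, 962 and 612 CPM in loss and 1987, 1374 and 1692 CPM in maintenance (1.22 ± 0.27, adjusted p = 0.00279). Ppargc1a, the coactivator that promotes mitochondrial genes, was at 1.85, 2.75 and 3.87 CPM in loss and 8.37, 5.82 and 7.29 CPM in maintenance (1.34 ± 0.31, adjusted p = 0.00374; 4-library fit 1.14, adjusted p = 0.0469).

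Fat and sterol synthesis split the maintenance group. Over all 6 libraries 16 of 20 lipogenesis genes rose, with a median of 2.32 (4 rose on FPKM). Without maintenance library 3 2 rose and 2 fell, without loss library 1 7 rose, and in the 4-library fit 1 rose and 3 fell with a median of -0.30. Fasn, fatty acid synthase, was at 243, 1739 and 600.4 CPM in loss and 401, 758 and 29343 CPM in maintenance (3.56 ± 1.08, adjusted p = 0.0201), and the change was -0.55, adjusted p = 0.573 without maintenance library 3. Acly, which makes the acetyl-CoA for fat and sterols, was at 229, 212 and 249 CPM in loss and 116, 137 and 10968 CPM in maintenance. It was called higher over all 6 (4.02 ± 1.0, adjusted p = 0.00619) and lower in the 4-library fit (-0.83, adjusted p = 0.0171). The same turn was seen for the elongase gene Elovl6 (3.72 ± 1.01, adjusted p = 0.0108; 4-library fit -1.24, adjusted p = 0.044). That library is also the one with 3718 CPM of the 14 liver genes low in controls and 5233 CPM of Alb. The part of liver transcripts in its lipogenic levels was not tested.

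Acacb, the acetyl-CoA carboxylase that controls fatty acid oxidation, was the 1 gene of the list higher in both fits, at 24.4, 90.4 and 87.8 CPM in loss and 239, 241 and 678 CPM in maintenance (2.51 ± 0.42, adjusted p = 0.00033; 4-library fit 1.46, adjusted p = 0.00314). All loss libraries lay below the controls, which spanned 215 to 375 CPM. Scd2, the desaturase of non-hepatic tissues, was at 159.8, 239 and 209 CPM in loss and 21.4, 43.8 and 2596 CPM in maintenance. Maintenance libraries 1 and 2 were below the control range of 45.7 to 111 CPM and all loss libraries above it, and its change was 2.13 ± 0.97, adjusted p = 0.112 over all 6 libraries and -2.75, adjusted p = 0.00314 in the 4-library fit.

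Sterol synthesis showed the same division. Of 23 genes 4 rose and 1 fell over all 6 libraries (median 0.92), and none rose and 7 fell in the 4-library fit (median -0.61). Without maintenance library 3 alone 12 fell and none rose, and without maintenance library 2 alone 14 rose. Dhcr7, the last enzyme of cholesterol synthesis, was at 30.2, 16.8 and 22.1 CPM in loss, 5.51, 7.64 and 88.9 CPM in maintenance and 6.31 to 8.14 CPM in controls (0.56 ± 0.59, adjusted p = 0.516; 4-library fit -1.53, adjusted p = 0.00252). Fdps, the farnesyl diphosphate synthase gene, was at 53.7, 34.4 and 32.7 CPM in loss, 14.4, 16.3 and 315 CPM in maintenance and 12.6 to 17.9 CPM in controls (1.52 ± 0.68, adjusted p = 0.105; 4-library fit -1.09, adjusted p = 0.00858). In maintenance libraries 1 and 2 both genes lay within or just below the control levels, and in the 3 loss libraries they lay above all 6 controls.

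**Figure D3:**
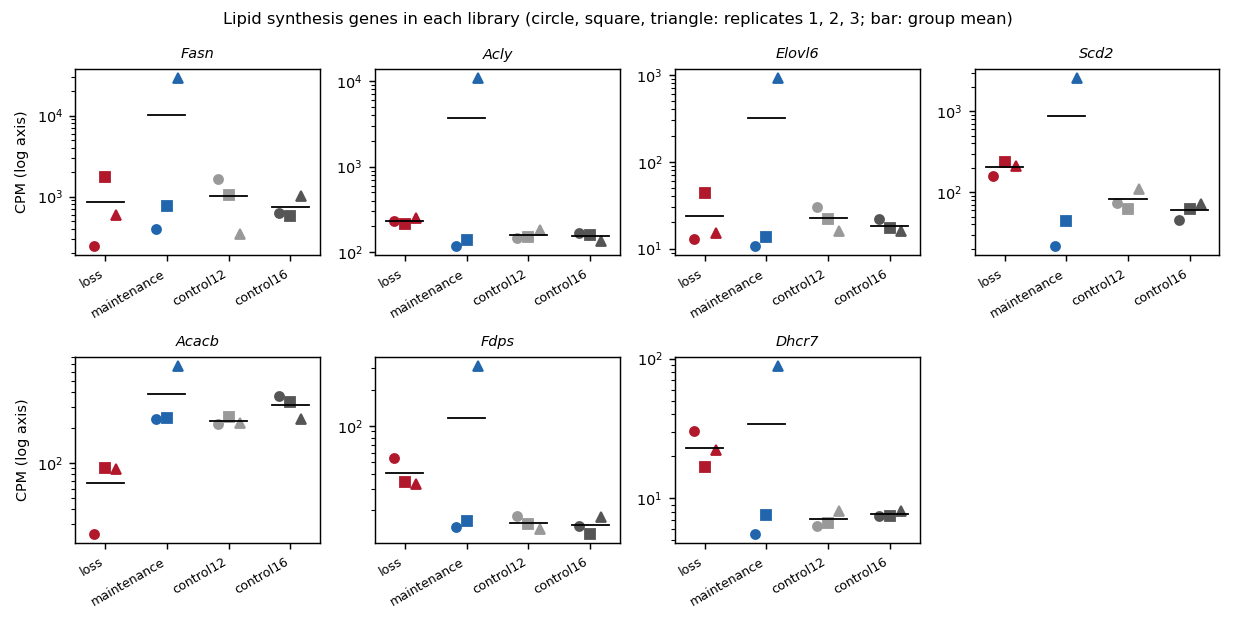
TMM-scaled CPM of 7 fat and sterol synthesis genes on a logarithmic axis in each loss, maintenance, control12 and control16 library; symbols mark replicates 1, 2 and 3 and bars the mean of each group. Maintenance library 3 is the highest library for all 7 genes, while maintenance libraries 1 and 2 lie below the 3 loss libraries for Acly, Scd2, Fdps and Dhcr7 and above them for Acacb.

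Markers of blood in the pad also differed, and those of its surface did so in some of the fits. All 8 red cell genes rose (median 2.50; all 8 in the 4-library fit, median 2.42). Hbb-bt, a beta-globin gene with a near copy, was at 16.6, 46.7 and 46.5 CPM in loss and 364, 115 and 139 CPM in maintenance (2.49 ± 0.53, adjusted p = 0.00221) against 90.5 to 182 CPM in controls, so loss was the low group. Of 13 mesothelium genes 5 rose (median 3.11; 1 in the 4-library fit), and the count was 0 without loss library 1, loss library 3 or maintenance library 1 and 9 without loss library 2 or maintenance library 3. Wt1, the mesothelial transcription factor gene, was at 5.73, 6.92 and 6.35 CPM in loss and 45.5, 13.4 and 4.59 CPM in maintenance (1.74 ± 0.56, adjusted p = 0.0272), and maintenance libraries 1 and 2 lay above the loss libraries but library 3 below them. Its call was lost without loss library 1 (1.68, adjusted p = 0.114), loss library 3 (1.77, adjusted p = 0.0708) or maintenance library 1 (0.52, adjusted p = 0.486). Of 16 endothelial genes Nos3, the endothelial nitric oxide synthase gene, rose (1.29 ± 0.46, adjusted p = 0.0423; without loss library 1 1.01, adjusted p = 0.212; without loss library 3 1.43, adjusted p = 0.0682; without maintenance library 3 0.47, adjusted p = 0.404). Nos3 was the 1 call of the endothelial list, whose median was -0.20, and no endothelial gene was called in the 4-library fit. The part of blood and mesothelial content in the other results was not tested. The remaining lists gave few calls, and several changed with the libraries used. Of 18 circadian clock genes 1 rose, with 1 higher and 2 lower in the 4-library fit and 2 higher and 3 lower without maintenance library 3. Of 12 thermogenic genes 4 rose, with 1 higher in the 4-library fit, 2 without loss library 1 or 3, and 1 higher and 2 lower without maintenance library 3. Of 10 genes of fat pad expansion 2 rose in both fits, with 1 higher without loss library 1 and 1 higher and 4 lower without maintenance library 2. Of 30 ribosomal protein genes 2 rose (none in the 4-library fit or without loss library 1, loss library 3 or maintenance library 1, and 6 without maintenance library 2 or 3), and of 11 acute phase genes 2 rose (1 in the 4-library fit or without maintenance library 3). Of 14 complement genes 1 rose and 3 fell in both fits, and 5 fell without maintenance library 1. Saa3, an acute phase gene of inflamed fat, was at 6.74, 9.14 and 2.81 CPM in loss and 21.3, 6.59 and 8.48 CPM in maintenance (0.96 ± 0.91, adjusted p = 0.461), with overlapping groups.

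The genes with the largest changes were picked among those called in both fits whose groups did not overlap. On the lower side was Serpinb9b, a protease inhibitor gene of a family of close copies (chromosome 13, 33027416 to 33041884, GRCm38), at 449, 8.26 and 35.4 CPM in loss and 0.867, 1.88 and 0.486 CPM in maintenance (-7.22 ± 1.02, adjusted p = 0.000125; 4-library fit -3.95, adjusted p = 0.00167). Loss library 1 held most of its reads. Vsig8 (chromosome 1, 172555938 to 172563717) was more even, at 74.3, 35.5 and 48.5 CPM in loss and 5.24, 3.94 and 0.707 CPM in maintenance (-3.99 ± 0.70, adjusted p = 0.00052), as was Tm4sf19 (chromosome 16, 32400506 to 32408227), a tetraspanin-like gene, with a change of -4.33 ± 0.83, adjusted p = 0.00101. Ptchd1 was at 13.3, 3.63 and 6.71 CPM in loss and 0.226, 0.707 and 0.574 CPM in maintenance (-3.96 ± 0.63, adjusted p = 0.000257). The other 6 of the 10 were Mmp13, Mmp12, Il1rn, Gpnmb, Egr2 and Adam8, described above.

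On the higher side Cyp2e1, a cytochrome P450 that adipocytes and liver express (chromosome 7, 140763739 to 140774987), was at 20.7, 247 and 105 CPM in loss and 8078, 1665 and 1213 CPM in maintenance (4.88 ± 0.85, adjusted p = 0.000444; 4-library fit 4.84, adjusted p = 0.00252). It was higher in each maintenance library than in any loss library, maintenance library 3 was the lowest of the 3, and the controls spanned 2172 to 3735 CPM. Acsm3, a mitochondrial medium-chain acyl-CoA synthetase gene (chromosome 7, 119760923 to 119787513), was at 0.384, 1.78 and 1.59 CPM in loss and 75.2, 10.3 and 11.4 CPM in maintenance (4.68 ± 0.82, adjusted p = 0.000469; 4-library fit 4.72, adjusted p = 0.00431). Rassf6 (chromosome 5, 90603076 to 90640657), a gene of the RAS association family, was at 0.0349, 0.0672 and 0.232 CPM in loss and 15.5, 1.21 and 2.87 CPM in maintenance (5.81 ± 0.84, adjusted p = 0.000146). Rassf6, Acsm3, Cyp2e1 and Cxcl13 were highest in maintenance library 1. The loss values of Rassf6 and Cxcl13 rest on few reads, so the size of their changes depends in part on the prior count.

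A further 5 were highest in maintenance library 3, the library with liver transcripts. Apoc3, an apolipoprotein gene of liver and gut, was at 15.4, 1.51 and 146 CPM in maintenance and at 0.384, 1.11 and 0.992 CPM in loss. Cyp2f2 was at 12.3, 1.55 and 66.0 CPM and Ttc36 at 1.77, 0.606 and 25.4 CPM. Pon1, the serum paraoxonase gene, was at 5.54, 0.976 and 44.4 CPM and Tmem56 at 6.83, 1.99 and 15.6 CPM. In loss Ttc36 was at 0.0349, 0.0336 and 0.132 CPM, a few reads, so the size of its change (7.01) depends on the prior count.

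**Figure D4:**
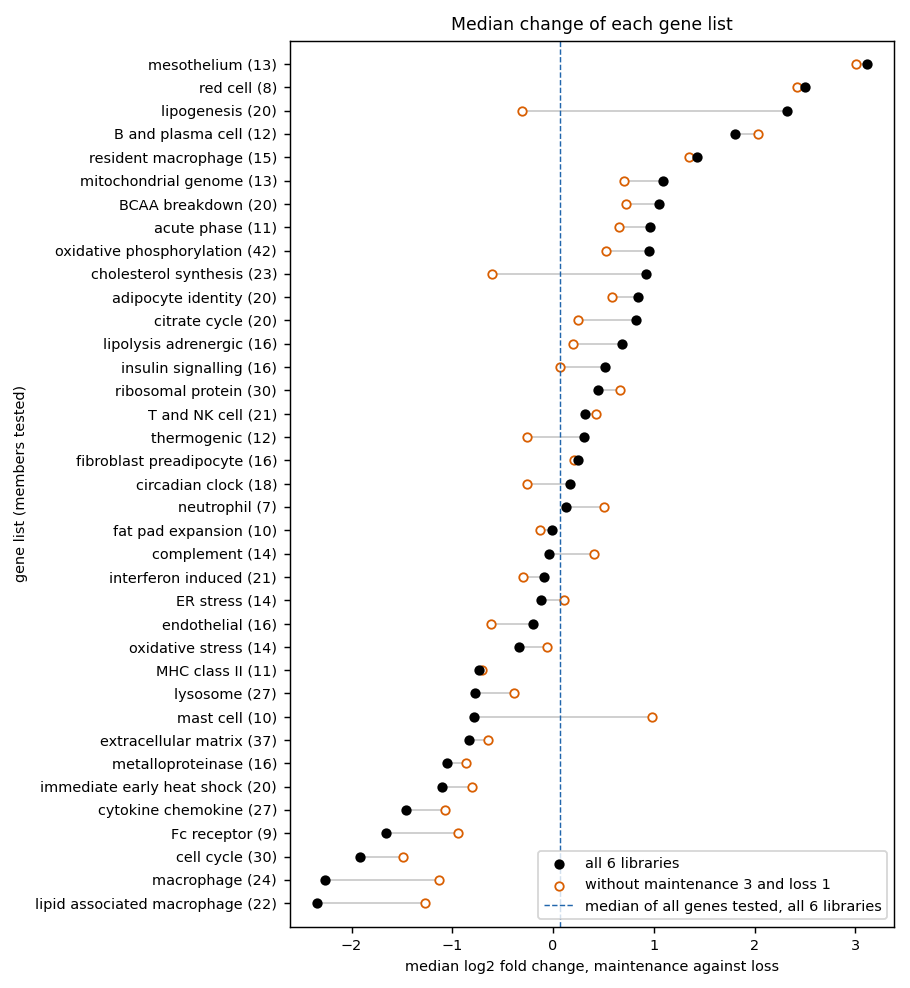
Median log2 fold change of maintenance over loss for 37 gene lists (rows, with the number of members tested), over all 6 libraries (filled) and without maintenance library 3 and loss library 1 (open); the dashed line marks the median of all genes. Macrophage, lipid-associated macrophage and cell cycle lists stay on the lower side in both fits, and lipogenesis, cholesterol synthesis, mast cell, thermogenic, circadian clock, complement and endoplasmic reticulum stress lists change side.

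Hardly any gene passed a test over the same 4 weeks of age in control mice. Between control12 and control16 edgeR called 0 of 17821 genes (0%), although 665 had an unadjusted p below 0.05 (smallest adjusted p 0.821). DESeq2 called 36 genes there. The difference of differences, the change from loss to maintenance minus the change from control12 to control16, was called for 1599 genes, 590 on the higher side (3.31%) and 1009 on the lower (5.66%). In the 4-library fit 141 (0.791%) and 398 (2.23%) were called, and a fit of only these 4 groups called 1. The count in all was 498 without loss library 1, 2581 without loss library 2, and 952 and 928 without control16 libraries 1 and 2. On the lower side of this difference stood 27 of 30 cell cycle genes (7 in the 4-library fit), 17 of 24 macrophage markers (10), 10 of 22 lipid-associated genes (4), 11 of 27 lysosome genes (5) and 9 of 27 cytokine genes (4). On its higher side, with no library left out, were 9 of 20 branched-chain amino acid genes, 7 of 20 lipogenesis genes, 5 of 20 citrate cycle genes and 4 of 20 adipocyte identity genes. In the 4-library fit these counts were 1, 0, 0 and 1, and 1 lipogenesis gene was on the lower side. Lists of other tissues stood on the higher side too, with 7 of 17 liver genes (1 in the 4-library fit) and 5 of 10 efferent duct and ciliated cell genes (none). So did 5 of 13 mitochondrial genome genes and 3 of 8 red cell genes (none of either in the 4-library fit). Of 37 matrix genes 6 stood on the lower side (none in the 4-library fit). No resident macrophage gene passed on either side in either fit.

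For Egr2 the difference of differences was -4.19 ± 0.60, adjusted p = 0.00169, with a change of 0.09 between the controls. Ccl2 gave -4.34 ± 0.71, adjusted p = 0.00274, Spi1 -2.94 ± 0.46, adjusted p = 0.00233 and Mki67 -2.50 ± 0.54, adjusted p = 0.00781. Cfd gave 3.60 ± 0.93, adjusted p = 0.0199 and Akt2 1.27 ± 0.27, adjusted p = 0.00702. Ptgds and Clic6 were highest in control12 library 3: Ptgds was at 0.581, 0.305 and 15.3 CPM in control12 and 2.23, 1.24 and 0.309 CPM in maintenance, and Clic6 at 1.43, 2.63 and 30.9 CPM in control12 and 3.39, 6.33 and 2.52 CPM in maintenance. That library also held 243 CPM of efferent duct and ciliated cell transcripts. For Trem2 (-2.53 ± 0.91, adjusted p = 0.0827), Fam13a (1.94 ± 0.66, adjusted p = 0.0658) and Cd163 (1.04 ± 0.65, adjusted p = 0.334) the difference of differences was not called.

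**Figure D5:**
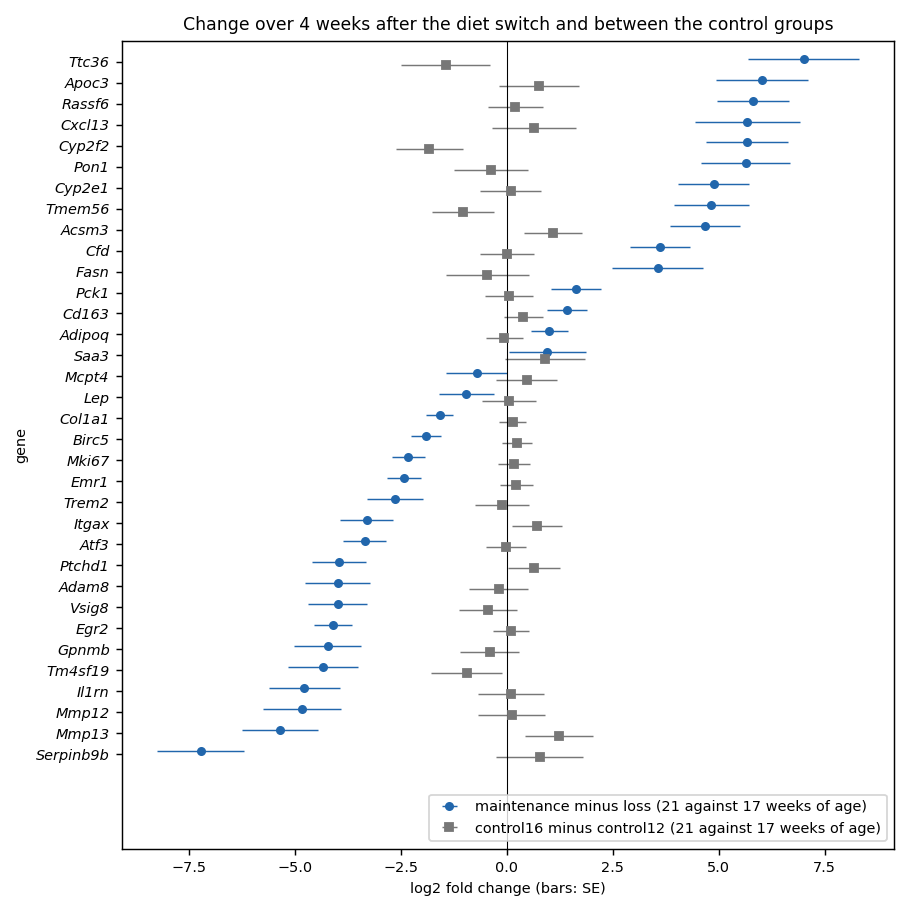
Log2 fold change ± SE of 19 genes with the largest changes and of 16 marker genes (Gpnmb belongs to both sets), from loss to maintenance (circles) and from control12 to control16 (squares). The circles run from -7.22 for Serpinb9b to 7.01 for Ttc36, while the squares of all these genes lie between -2 and 2.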

How the data were processed

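RNA sequencing of mouse epididymal fat gave 27 libraries in 9 groups of 3. Per the submitters' processing notes, the tools were Trimmomatic 0.33, TopHat2 2.0.13 and HTSeq 0.6.0, and the build mm10 (GRCm38). Annotation, strand setting and handling of reads with several matches are not given in the sources used here. Overlapping genes and close copies may share reads. The authors deposited raw counts in 43616 rows, of which 156 repeat another row of the same name and were used once, and FPKM in 22194 rows. The deposited FPKM equals the count over gene length and over the summed counts of protein-coding genes, within 0.5% for 99.9% of values. FPKM was used only as an alternative scale.

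Counts of all 27 libraries were fitted with edgeR 4.0.16 (R 4.3.3), with TMM scaling, filterByExpr (minimum count 10, minimum total 15), 1 mean per group and the quasi-likelihood test. The Benjamini-Hochberg adjustment ran over all 17821 genes tested. A 4-library fit keeps the pooled spread and leaves out maintenance library 3 and loss library 1. In that fit each of the groups holds 2 libraries. The code was tested on simulated data. Alternatives were DESeq2 1.42.0, limma 3.58.1 on log2(FPKM + 1) and log2(FPKM + 0.1), RLE scaling, no filter on low counts, only the groups compared, a replicate block, splits by Lars2 level and each library left out. A fold change on the log2(FPKM + pseudocount) scale understates changes of low genes.

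The libraries compared, the 43 gene lists and the rule for named genes were chosen with earlier results of these data known. Lists are described by counts and medians, with no test of the list. Named genes are up to 10 in each direction with the largest change among those called in both fits, with groups that do not overlap and 5 CPM or more on average in the group with more; up to 5 in each direction by the same conditions for the difference of differences; a set of marker genes; and, per list, genes among the 3 with the smallest adjusted p. Predicted genes were passed over, and a few genes that meet the rule are not reported here. Promoter windows come from RefSeq on GRCm38.p6.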

Additional observations from a re-analysis of the deposited data

Results flagged for a closer look

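The change from loss to maintenance differed from the change between control12 and control16 for 28 of the reported genes with the largest changes or in the marker set, by the edgeR test of the difference of differences with an adjusted p under 0.05. Over all genes tested 3.31% were called on the higher side of that difference and 5.66% on the lower. Many of the 28 were picked for a large change from loss to maintenance, which is part of the difference, or for a large difference. Their number is therefore no measure of how far genes departed from the controls. The values below are that difference on the log2 scale. On the lower side were the protease and inhibitor genes Serpinb9b (-7.99), Mmp13 (-6.58), Mmp12 (-4.94) and Adam8 (-3.79), the signalling genes Il1rn (-4.87) and Ccl2 (-4.34), and the macrophage genes Itgax (-4.03), Gpnmb (-3.81) and Emr1 (-2.65). The cell division genes Mki67 (-2.50) and Birc5 (-2.15), the collagen gene Col1a1 (-1.73) and the factors Egr2 (-4.19) and Atf3 (-3.34) were lower as well, as were Ptchd1 (-4.60) and Vsig8 (-3.55). On the higher side were the adipocyte and metabolic genes Cfd (3.60), Cyp2e1 (4.78) and Acsm3 (3.60), the chemokine gene Cxcl13 (5.03) and Rassf6 (5.61). Cxcl13 and Rassf6 had few reads in loss. Apoc3 (5.26), Ttc36 (8.45), Cyp2f2 (7.49), Pon1 (6.01) and Tmem56 (5.85) were highest in maintenance library 3, the library with liver transcripts, and the part of these in the differences was not tested. Ptgds (6.93) and Clic6 (6.69) were also on the higher side; control12 library 3 held more of both than any other of the 12 libraries. Without maintenance library 3 and loss library 1 the same test called 539 genes in place of 1599.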

How the results depend on the processing

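Of 17821 genes tested, 4368 were called between maintenance and loss. RLE scaling gave 4446 (52.0% of them higher, against 47.4%), no filter on low counts 3722, DESeq2 5012 (52.9% higher), log2(FPKM + 1) 3848 (22.6% higher) and log2(FPKM + 0.1) 3951 (24.6% higher), where the medians of all genes were -0.08 and -0.13. A term for the Lars2 set of each library gave 4616, and the libraries above 1000 CPM of Lars2 alone, among which maintenance library 3 is the single maintenance sample, gave 5858; that arm of 1 library is assumed to vary like the other groups and carries the liver transcripts. The count was 0 with the compared groups alone (3920 genes at an unadjusted p under 0.05), 0 among the libraries below 1000 CPM of Lars2, which hold 1 loss library (2676 at an unadjusted p under 0.05), 1779 without maintenance library 3 and loss library 1, and 1955 without these and control12 library 3. Leaving out 1 library gave 1647 to 5235, with the lowest value without loss library 1. The cause of these moves was not tested; fits of fewer libraries also have fewer degrees of freedom.

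For the difference of differences the main count was 1599. It was 1 with the compared groups alone, 4241 in the libraries above and 0 in those below 1000 CPM of Lars2 (1450 at an unadjusted p under 0.05), 539 and 547 with 2 and 3 libraries out, and 498 to 2581 with 1 library out. DESeq2 gave 2335. Between control12 and control16 the count was 0 in every edgeR and limma setting and 36 with DESeq2. Same-numbered loss and maintenance libraries correlated at 0.041, 0.27 and 0.29 in their deviations from the group means, and those with different numbers at -0.24 to 0.11. Since 1 same-numbered pair lies under 0.1, and maintenance library 1 correlated best with loss library 2, the samples were treated as sharing only a number. With the replicate number as a block 4061 genes were called between maintenance and loss and 1285 for the difference of differences.

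Single genes changed sign as follows. Among the libraries below 1000 CPM of Lars2 the change was -0.73 for Acly, -1.34 for Dhcr7, -1.82 for Elovl6, -1.57 for Fasn, -1.15 for Fdps, 0.49 for Lars2, 0.34 for Mcpt4, -2.86 for Scd2 and -0.24 for Trac. Among those above it, with 1 maintenance library, the change was -0.28 for Dcn, 0.59 for Lars2, -0.57 for Mcm7 and -0.35 for Wt1. With the Lars2 term the change was 0.36 for Lars2. Without maintenance library 3 and loss library 1 the change was -0.83 for Acly, -1.53 for Dhcr7, -1.24 for Elovl6, -0.98 for Fasn, -1.09 for Fdps, 0.95 for Mcpt4 and -2.75 for Scd2. Without these and control12 library 3 the change was -0.87 for Acly, -1.56 for Dhcr7, -1.27 for Elovl6, -1.01 for Fasn, -1.13 for Fdps, 0.91 for Mcpt4 and -2.78 for Scd2. On log2(FPKM + 1) the change was -0.43 for Dhcr7, -0.013 for Fdps, -0.016 for Mcm7 and -0.59 for Scd2. On log2(FPKM + 0.1) the change was -0.64 for Dhcr7, -0.042 for Fdps, -0.035 for Mcm7 and -0.70 for Scd2. With 1 library left out the change ran from -0.83 to 4.57 for Acly, -1.78 to 1.05 for Dhcr7, -0.95 to 4.48 for Elovl6, -0.55 to 4.59 for Fasn, -1.36 to 2.02 for Fdps, -3.53 to 0.15 for Lars2, -0.15 to 0.52 for Mcm7, -1.28 to 0.74 for Mcpt4 and -2.61 to 2.68 for Scd2. The cause was not tested.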

Other observations

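Daglb and Dok2 shared the smallest adjusted p with Egr2 and belong to none of the lists; they were picked after their values were seen. Daglb encodes the diacylglycerol lipase that makes the endocannabinoid 2-arachidonoylglycerol in macrophages. It was at 184, 114 and 123 CPM in loss, 45.9, 44.5 and 28.6 CPM in maintenance and 28.9 to 38.2 CPM in the controls (edgeR -1.82 ± 0.20, adjusted p = 6.97e-05; without maintenance library 3 and loss library 1 -1.35, adjusted p = 0.000962). Dok2, an adaptor that restrains signalling in myeloid cells, was at 119.7, 51.9 and 56.1 CPM in loss, 17.6, 19.6 and 10.6 CPM in maintenance and 11.3 to 22.6 CPM in the controls (edgeR -2.25 ± 0.25, adjusted p = 6.97e-05; without these 2 libraries -1.5, adjusted p = 0.000121). No loss library overlapped a maintenance library for either gene.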
